A study of Mus musculus with 10 samples.

Results

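The claudins and tight junction genes described here are 10 genes, Cldn1, Cldn2, Cldn3, Cldn4, Cldn7, Cldn8, Cldn15, Cldn23, Tjp1 and Ocln, chosen by name. Every probe set of the array annotated to 1 of these genes alone was taken, which gave 18 of 45101 probe sets for 10 of 18193 genes. The genes were compared between colon tumours of 2 genotypes. The KO tumours came from mice labelled vil-Cre-Bcl9-/-/Bcl9l-/-, in which, by the label, a Cre recombinase under the villin promoter of gut epithelium removes Bcl9 and Bcl9l, cofactors of beta-catenin in Wnt signalling. The WT tumours came from mice labelled wildtype. All mice were of a mixed 129SvEv/C57BL/6/DBA/2 background and, at 6 to 8 weeks of age, were given 1 dose of the carcinogen dimethylhydrazine (DMH, 44 mg/kg) and afterwards drank 2% dextran sulfate sodium (DSS), an agent that injures the colon, for 7 days. Tumour tissue was cut out by laser from frozen sections, and each of the 10 tumours was measured on 1 Affymetrix mouse genome array. The 5 KO tumours came from 3 mice (KO tumours 2 and 6 from mouse 02, 9 and 11 from mouse 04, and 7 from mouse 99). Of the 5 WT tumours, 4 came from mouse 72 (WT tumours 1, 3, 12 and 13) and 1 from mouse 82 (WT tumour 8). Mouse 72 therefore supplied most of the WT tumours, and precision is limited by how few arrays and mice there were. The extraction text of the labels speaks of pooling the dissected samples of a mouse, while several arrays are listed for single mice; the arrays were taken as single tumours, as listed.

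Tight junctions seal the space between neighbouring epithelial cells and set which ions and solutes pass between them. Claudins span the membrane and form the strands of the junction: some members form pores for ions and water, and others tighten the barrier. Occludin (Ocln) is another membrane protein of the strands, and ZO-1 (Tjp1) is a scaffold inside the cell that ties them to the actin skeleton. In the colon the claudin make-up of a cell changes between the crypt base and the surface, and it is often altered in inflammation and in tumours.

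The values are log2 signals per probe set after RMA, an algorithm that corrects background, makes the arrays' distributions equal and summarises the probes of a set. Array medians ran from 6.43 to 6.50. The difference between the mean log2 signals of probes at the 3′ and 5′ ends of control transcripts, a measure of RNA quality, ran from 0.71 to 1.17 in KO tumours and from 0.78 to 1.14 in WT tumours. Each gene was represented by its brightest probe set, and 12250 of 18193 genes with a mean at or above 5.82 log2, the 40th percentile of all probe sets, were tested with limma, with the mouse as a random block and Benjamini-Hochberg adjustment. Of the 10 members, 8 were tested. Cldn1 and Cldn8 lay below that level and are given from a second fit over all 45037 probe sets that are not Affymetrix controls. The fitted difference is KO minus WT and weights tumours by mouse, so it can differ slightly from the difference of the group means. None of 5 probe sets of the targeted genes Bcl9 and Bcl9l differed past the threshold in that second fit (differences from −0.14 to 0.32 log2, adjusted p from 0.258 to 0.675, limma). Where they lie relative to the deletion is not stated, so they do not check the genotype labels.

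None of the 8 tested members passed the adjusted threshold of 0.05 in either direction, where 7.09% of all tested genes did, 4.16% higher and 2.93% lower in KO tumours (limma). In none of the 8 were the KO and WT tumours free of overlap, where 9.12% of all tested genes were. Cldn4 had an unadjusted p under 0.05, as did 22.4% of all tested genes. The fitted difference was positive for 5 members (Cldn2, Cldn3, Cldn7, Cldn15 and Ocln) and negative for 3 (Cldn4, Cldn23 and Tjp1), with a median of 0.20 log2 over the 8, against 0.03 over all tested genes. Among the 18 probe sets, none passed in the second fit (background 4.31%; adjusted p from 0.158 to 0.944, limma), and 2, of Cldn2 and Cldn4, had an unadjusted p under 0.05 (background 18.1%). In none of the 18 were the groups free of overlap, where 6.9% of all probe sets were.

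**Figure D1:**
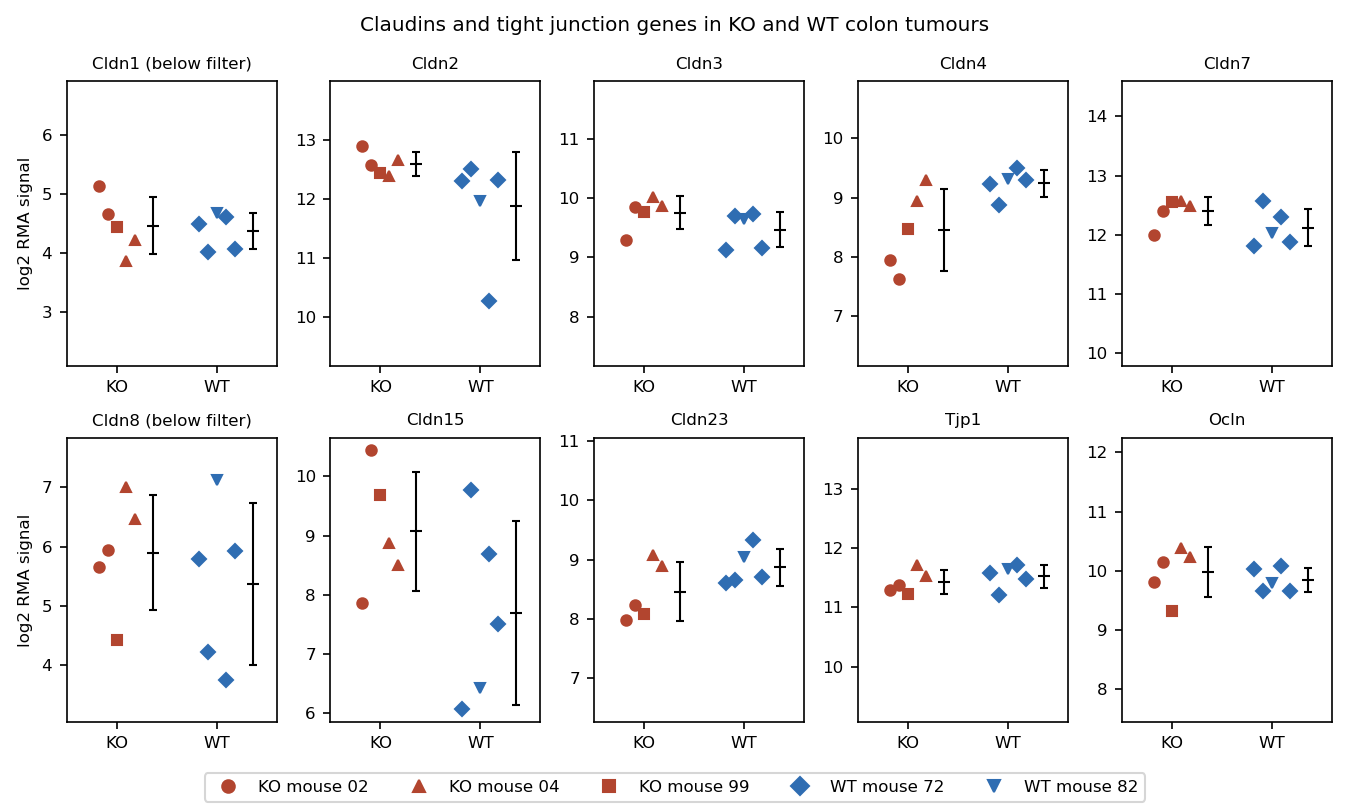
Log2 RMA signal (y axis; every panel spans the same number of log2 units) of the 10 genes in each KO and WT tumour, 1 point per tumour with a symbol per mouse; the bar beside each group is the mean with its SD (n = 5). KO and WT tumours overlapped in each panel; the widest spread was that of Cldn15, from 6.06 to 10.44 log2.

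The pore-forming claudins were taken first. Cldn2 encodes a claudin that forms pores for cations and water and is known from crypt cells of the gut. On probe set 1417231_at its signal was 12.89, 12.58, 12.44, 12.39 and 12.66 log2 in KO tumours 2, 6, 7, 9 and 11, against 12.30, 12.51, 11.97, 10.28 and 12.33 log2 in WT tumours 1, 3, 8, 12 and 13. The KO tumours lay close together, and among WT tumours number 12 stood far below the other 4, which reached into the KO range at the top. The means were 12.59 ± 0.20 log2 in KO and 11.88 ± 0.91 log2 in WT tumours (SD, n = 5 tumours each), a fitted difference of 0.71 ± 0.40 log2 (SE; 95% confidence interval −0.17 to 1.59; adjusted p = 0.327, limma). Without WT tumour 12 the difference was 0.32 log2 (adjusted p = 0.226, limma). Over mouse means the Cldn2 difference was 0.65 ± 0.15 log2 (SE, adjusted p = 0.0823, limma). The mouse means were 12.73, 12.44 and 12.53 log2 in KO mice 02, 99 and 04, against 11.85 and 11.97 log2 in WT mice 72 and 82. The other probe set of Cldn2, 1417232_at, also had its lowest value, 6.84 log2, in WT tumour 12. It was at 9.80 ± 0.31 log2 in KO and 8.45 ± 1.13 log2 in WT tumours, a difference of 1.37 log2 (95% interval 0.30 to 2.43; unadjusted p = 0.0170, adjusted p = 0.158 over all probe sets, limma). Both probe sets had the higher mean in KO tumours and the wider spread in WT tumours. The WT standard deviation of Cldn2 was larger than that of 96.3% of tested genes, and its KO standard deviation larger than that of 44.5%.

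Cldn15, a cation-selective pore claudin known from the small intestine and from crypts, varied more than any other tested member. Its signal was 7.86, 10.44, 9.68, 8.87 and 8.50 log2 in KO tumours 2, 6, 7, 9 and 11, against 6.06, 9.78, 6.43, 8.69 and 7.50 log2 in WT tumours 1, 3, 8, 12 and 13. The 2 KO tumours of mouse 02 alone, tumours 2 and 6, spanned the whole KO range, and 3 of the 5 WT tumours lay below every KO tumour. The means were 9.07 ± 1.01 log2 in KO and 7.69 ± 1.55 log2 in WT tumours (SD, n = 5 tumours each), a difference of 1.43 ± 0.77 log2 (SE; 95% interval −0.27 to 3.13; adjusted p = 0.310, limma). The point estimate corresponds to a 2.69-fold higher level in KO tumours, and the interval includes no difference. Over mouse means the Cldn15 difference was 1.95 ± 0.51 log2 (SE, adjusted p = 0.118, limma). Without mouse 72, which leaves 1 WT tumour, the Cldn15 difference was 2.67 log2. Its standard deviation exceeded that of 98.3% of tested genes within KO tumours and of 99.4% within WT tumours.

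Among the claudins that tighten the barrier, Cldn3 and Cldn7 had positive and Cldn4 and Cldn23 negative differences, and none passed the threshold. Cldn4, a barrier claudin known from the upper crypt and surface of the colon, had the largest negative difference of the tested members. Its signal was 7.94, 7.63, 8.46, 8.94 and 9.30 log2 in KO tumours 2, 6, 7, 9 and 11, against 9.23, 8.87, 9.32, 9.49 and 9.29 log2 in WT tumours 1, 3, 8, 12 and 13. The KO values were ordered by mouse: both tumours of mouse 02 were lowest, that of mouse 99 was next, and both tumours of mouse 04 lay within the WT range. The means were 8.46 ± 0.69 log2 in KO and 9.24 ± 0.23 log2 in WT tumours (SD, n = 5 tumours each), a difference of −0.79 ± 0.30 log2 (SE; 95% interval −1.45 to −0.13; unadjusted p = 0.0234, adjusted p = 0.147, limma). The fit applied 1 within-mouse correlation, 0.0586, to all genes, so it counted tumours of a mouse nearly as independent. Over mouse means the Cldn4 difference was −0.81 ± 0.38 log2 (SE, adjusted p = 0.332, limma), and no member passed in that fit. Without mouse 02 the difference was −0.35 log2 (adjusted p = 0.441), and without mouse 04 it was −1.23 log2 and passed the threshold (adjusted p = 0.0177, limma). Cldn4 thus depended on which KO mouse was counted.

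Cldn23, whose gene product is known from differentiated colon epithelium, had a pattern like that of Cldn4 among the KO mice. Its signal was 7.98, 8.23, 8.08, 9.08 and 8.90 log2 in KO tumours 2, 6, 7, 9 and 11, against 8.61, 8.66, 9.04, 9.33 and 8.70 log2 in WT tumours 1, 3, 8, 12 and 13. The tumours of mice 02 and 99 lay below every WT tumour, and those of mouse 04 lay within the WT range. The difference was −0.42 ± 0.25 log2 (SE; 95% interval −0.97 to 0.12; adjusted p = 0.350, limma), and it was −0.76 log2 without mouse 04 (adjusted p = 0.0543) and −0.19 log2 without mouse 02 (adjusted p = 0.762).

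Cldn7 encodes a claudin that also sits along the side membranes of intestinal cells, where it binds Epcam, and Cldn3 a barrier claudin found along the whole crypt. Cldn7 was at 11.99, 12.40, 12.56, 12.57 and 12.49 log2 in KO tumours 2, 6, 7, 9 and 11, against 11.80, 12.56, 12.03, 12.29 and 11.88 log2 in WT tumours 1, 3, 8, 12 and 13. Cldn3, on probe set 1460569_x_at, was at 9.29, 9.84, 9.76, 10.01 and 9.87 log2 in the same KO tumours, against 9.13, 9.70, 9.65, 9.72 and 9.15 log2 in the same WT tumours. On these probe sets KO tumour 2 was the lowest of its group for both genes, as was WT tumour 1. The other 4 KO tumours lay above every WT tumour for Cldn3 and above all but WT tumour 3 for Cldn7. The differences were 0.29 ± 0.18 log2 for Cldn7 (SE; 95% interval −0.10 to 0.68; adjusted p = 0.374) and 0.28 ± 0.18 log2 for Cldn3 (95% interval −0.12 to 0.68; adjusted p = 0.407, limma). KO tumour 2 also had the highest 3′ to 5′ difference of all tumours, 1.17 log2, and with that measure as a covariate both differences were 0.16 log2. Without mouse 72 the Cldn3 difference was 0.11 log2. All 4 probe sets of Cldn3 had positive differences, from 0.05 to 0.28 log2, and none passed. On 1451701_x_at and 1426332_a_at, however, KO tumours 6 and 7 lay below WT tumour 3. The genes of Cldn3 and Cldn4 are neighbours on chromosome 5 in the mouse assembly GRCm38.p6, 39.3 kb apart with no annotated gene between them, and their differences had opposite signs.

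Cldn1 and Cldn8 lay below the level filter, where background was not assessed. For Cldn1, a barrier claudin, all 4 probe sets had group means from 2.13 to 4.47 log2. The brightest, 1450014_at, was at 4.47 ± 0.48 log2 in KO and 4.38 ± 0.31 log2 in WT tumours (SD, n = 5 each; difference 0.08 ± 0.24 log2, SE; adjusted p = 0.908, limma), and its sign changed when KO tumour 2 or WT tumour 3 was left out. Cldn8, which limits sodium leak in the distal colon, was at 5.65, 5.94, 4.43, 7.00 and 6.47 log2 in KO tumours 2, 6, 7, 9 and 11, against 5.78, 4.21, 7.12, 3.75 and 5.93 log2 in WT tumours 1, 3, 8, 12 and 13. Single tumours of both genotypes thus reached levels above the filter, up to 7.00 log2 in KO tumour 9 and 7.12 log2 in WT tumour 8. The difference was 0.46 ± 0.67 log2 (SE; 95% interval −1.03 to 1.94; adjusted p = 0.791, limma over all probe sets). It was 0.10 log2 without WT tumour 12 and 0.97 log2 without WT tumour 8.

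**Figure D2:**
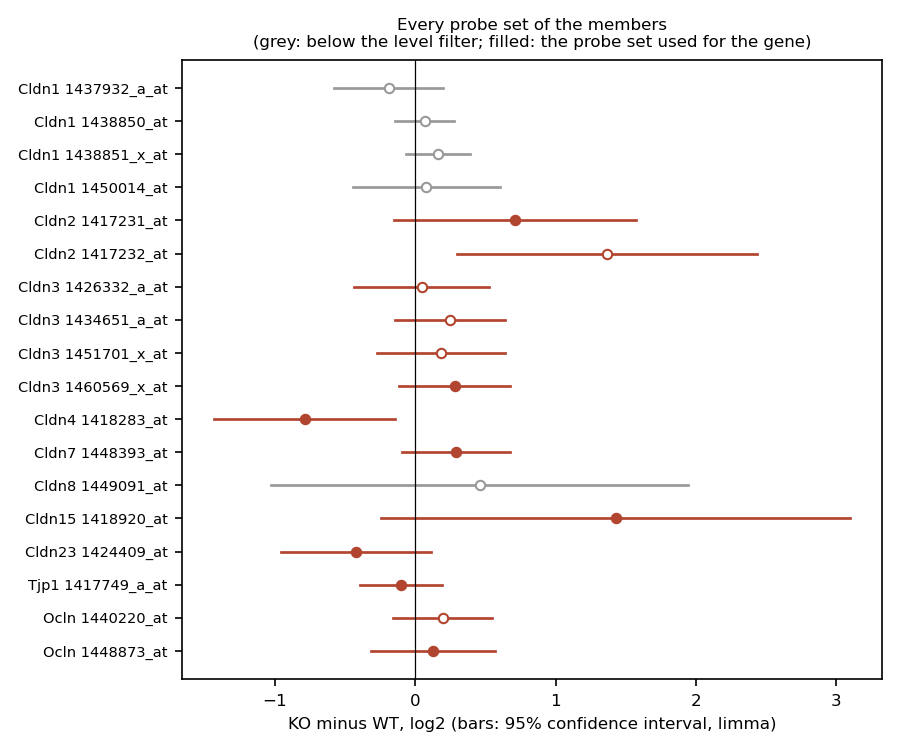
Fitted difference, KO minus WT in log2 units (x axis), of each of the 18 probe sets of the 10 genes (y axis), with its 95% confidence interval from the fit over all probe sets. Both Cldn2 probe sets and all 4 of Cldn3 lie to the right of 0, Cldn4 lies to the left, and none passed the adjusted threshold.

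Occludin and ZO-1 had the smallest differences among the tested members. Ocln was at 9.81, 10.15, 9.31, 10.38 and 10.24 log2 in KO tumours 2, 6, 7, 9 and 11, against 10.02, 9.66, 9.79, 10.08 and 9.67 log2 in WT tumours 1, 3, 8, 12 and 13. KO tumour 7, from mouse 99, was the lowest of all, and both tumours of mouse 04 were the highest. The difference was 0.13 ± 0.20 log2 (SE; 95% interval −0.32 to 0.58; adjusted p = 0.759, limma), and it turned negative, −0.083 log2, without mouse 04. Leaving out 1 tumour gave 0.035 log2 (without KO tumour 9) to 0.30 log2 (without KO tumour 7). The second Ocln probe set, 1440220_at, had a difference of 0.20 log2 (adjusted p = 0.585 over all probe sets). Tjp1 was at 11.43 ± 0.20 log2 in KO tumours, from 11.23 to 11.72, and at 11.53 ± 0.20 log2 in WT tumours, from 11.21 to 11.71 (SD, n = 5 each). The 2 ranges nearly coincided, and the difference was −0.10 ± 0.13 log2 (95% interval −0.40 to 0.19; adjusted p = 0.705, limma). The interval of Tjp1 was the narrowest of the 8, and leaving out 1 tumour gave differences from −0.18 log2 (without WT tumour 3) to −0.049 log2 (without KO tumour 7).

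The unique sample numbers of the tumours fall into 2 ranges, 191 to 229 with 1 KO and 4 WT tumours, and 254 to 258 with 4 KO and 1 WT tumour. What the ranges stand for is not stated. The fits within 1 range leave a single tumour in a group and assume that it varies like the others. Cldn4 had a difference of −0.78 log2 within the lower and −0.78 log2 within the upper range, Cldn15 1.58 and 2.85 log2, Cldn2 0.67 and 0.33 log2, and Cldn23 −0.85 and −0.06 log2. Cldn3 had 0.21 and 0.63 log2, Cldn7 0.36 and 0.56 log2, and Tjp1 −0.28 and −0.10 log2. Ocln alone changed sign between the ranges, at −0.49 log2 within the lower and 0.12 log2 within the upper. None of these within-range differences passed the threshold.

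The tumours themselves differed across the 8 tested members. KO tumour 9 was the highest of the KO tumours in 5 of the 8 and WT tumour 12 the highest of the WT tumours in 5, while WT tumour 12 was also the lowest WT tumour for Cldn2. KO tumour 2 was the lowest of its group in 4 members and the highest in 1, Cldn2. WT tumour 1 was the lowest of its group in 4 members, and WT tumour 3 was the highest in 3 and the lowest in 3. The median standard deviation of the 8 members was 0.35 log2 within KO and 0.31 log2 within WT tumours, against 0.22 and 0.23 log2 over all tested genes.

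Claudins are largely epithelial, so markers of the epithelium and of the other cells in the dissected tissue were set beside them. In such bulk samples fewer cells of a type and less RNA per cell cannot be told apart. None of 7 epithelium markers (Epcam, Cdh1, Krt8, Krt18, Krt19, Vil1 and Cdh17) passed the threshold, where 7.09% of all tested genes did. Their differences were positive for 5 and negative for 2, with a median of 0.11 log2. The largest was that of Vil1 (0.69 log2, adjusted p = 0.0716, limma), whose groups did not overlap. The mean log2 signal of the 7 markers ran from 12.53 to 12.70 in KO and from 12.15 to 12.66 in WT tumours. WT tumour 1, the lowest WT tumour for Cldn3, Cldn7, Cldn15 and Cldn23, had the lowest epithelium mean (12.15) and the lowest goblet cell mean, 7.19 log2, against 10.82 to 11.57 in KO tumours and 10.40 to 11.57 in the other WT tumours. WT tumour 3, the highest WT tumour for Cldn2, Cldn7 and Cldn15, had the highest goblet cell mean of the WT tumours, 11.57 log2, and the lowest fibroblast mean, 9.36 log2, against 9.51 to 10.55 in KO tumours and 10.38 to 10.66 in the other WT tumours. All 5 tested lymphocyte markers (Cd2, Cd3g, Cd8a, Cd79a and Jchain) rose in KO tumours, where 4.16% of all tested genes did. Below the level filter, Cd3e also rose (1.71 log2, adjusted p = 0.00553, limma over all probe sets). Ms4a1, below it too, did not pass (0.40 log2, adjusted p = 0.293). The summed linear signal of the 5 tested markers was 4317 to 6050 in KO against 498 to 1462 in WT tumours. Jchain, a gene of antibody-secreting cells, made up 82.9 to 89.5% of that sum in KO and 67.9 to 87.5% in WT tumours, and the other 4 markers summed to 512 to 836 in KO and 155 to 242 in WT tumours. Of 4 tested surface colonocyte markers, Guca2b rose (0.85 log2, adjusted p = 0.0304, limma). Car1, Krt20 and Guca2a did not pass, with differences of −3.26 log2 (adjusted p = 0.0773), −0.47 and 0.95 log2. Below the level filter, Slc26a3, Car4 and Aqp8 had differences of −1.39, −0.999 and −0.075 log2 in the fit over all probe sets and did not pass. The members of that list thus had differences of both signs, and the sum of the 4 tested was 1435 to 2585 in KO and 476 to 7830 in WT tumours. No endothelium (6 tested), fibroblast (7), smooth muscle (5) or goblet cell (6) marker passed. The goblet cell differences were nonetheless positive for 5 and negative for 1, Zg16, with a median of 1.25 log2. For Spink4 among them the groups did not overlap. All 7 tested fibroblast markers had negative differences, with a median of −0.37 log2, while Lum, below the level filter, was at 0.24 log2. The medians of endothelium and smooth muscle were −0.044 and −0.040 log2, with differences of both signs. Of 4 tested myeloid markers Cd14 rose (1.91 log2, adjusted p = 0.00186, limma), while Lyz2, Cd68 and Csf1r were at −0.43, 0.079 and 0.0083 log2 and did not pass. Below the level filter, Adgre1 and Itgam, at 0.36 and −0.25 log2, did not pass either. Their part in the differences of the claudins was not tested.

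**Figure D3:**
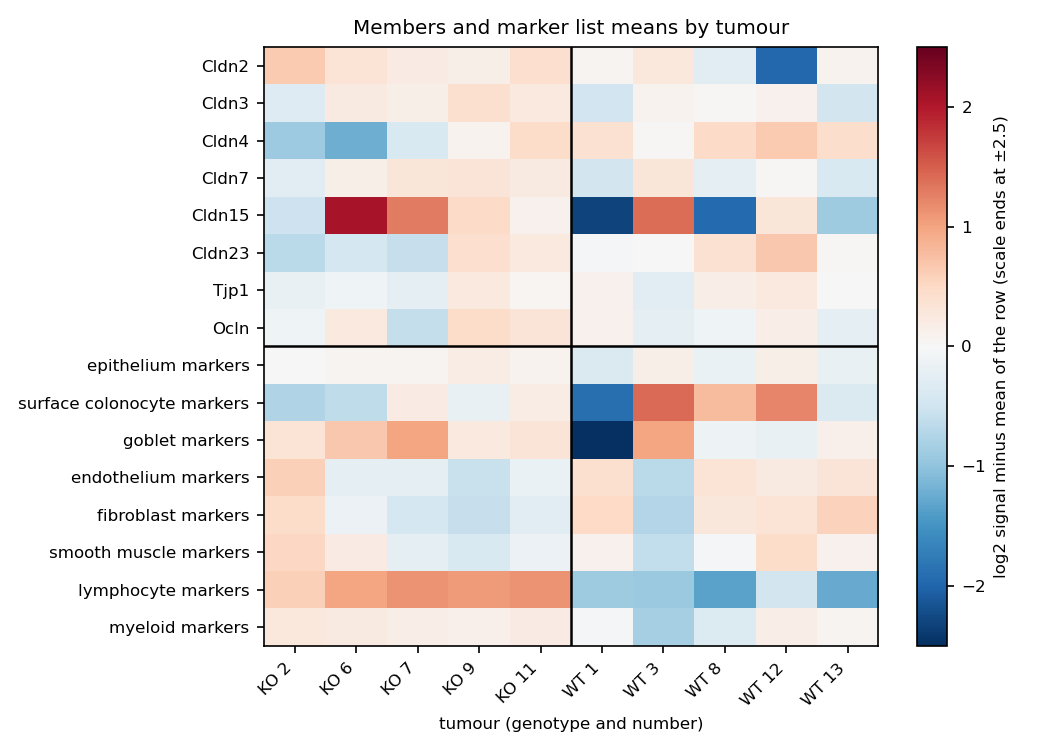
Log2 signal of the 8 tested members and mean log2 signal of each marker list (rows) in each tumour (columns, KO left of WT), with the mean of the row subtracted. Cldn2 is far lower in WT tumour 12 than in the rest, and Cldn15 varies widely among the tumours of both groups. Cldn4 is low in KO tumours 2 and 6, and the lymphocyte row separates KO from WT tumours.

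The promoter sequences of the 3 members with the largest differences, Cldn15, Cldn4 and Cldn2, are shown because Cldn15 and Cldn4 had the largest difference in each direction and Cldn2 was the next in size after Cldn4. The windows cover the 250 bases before the annotated start, read on the strand of the gene, from RefSeq sequence of the mouse assembly GRCm38.p6. Cldn2 lies at chrX:139800558-139800807 (plus strand), Cldn4 at chr5:134946935-134947184 (minus strand) and Cldn15 at chr5:136967619-136967868 (plus strand). Of 8 motifs searched on both strands, capitals mark matches to the CDX motif TTTATG. They also mark the sequence CACCTG, an E-box that Snail factors bind. The remaining capitals mark the TATA box, TATAAA in these letters.
Cldn2: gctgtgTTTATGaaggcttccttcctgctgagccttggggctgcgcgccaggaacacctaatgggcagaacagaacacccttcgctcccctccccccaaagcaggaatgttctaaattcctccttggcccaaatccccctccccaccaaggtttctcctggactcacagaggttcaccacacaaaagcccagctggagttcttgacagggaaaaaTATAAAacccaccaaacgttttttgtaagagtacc
Cldn4: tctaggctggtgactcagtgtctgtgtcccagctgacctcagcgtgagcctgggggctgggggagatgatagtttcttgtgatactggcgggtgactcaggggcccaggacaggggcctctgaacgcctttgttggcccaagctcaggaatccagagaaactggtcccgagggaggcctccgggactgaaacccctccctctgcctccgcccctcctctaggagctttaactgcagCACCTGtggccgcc
Cldn15: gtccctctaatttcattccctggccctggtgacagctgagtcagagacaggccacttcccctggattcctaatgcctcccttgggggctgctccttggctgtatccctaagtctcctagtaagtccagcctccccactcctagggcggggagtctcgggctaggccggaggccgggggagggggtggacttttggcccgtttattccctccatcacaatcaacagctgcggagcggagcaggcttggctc

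The Cldn2 window holds TTTATG, 244 to 239 bases before the start, and TATAAA, 35 to 30 bases before it. The Cldn4 window holds CACCTG, 14 to 9 bases before the start, and the Cldn15 window holds none of these motifs. RefSeq windows were matched for 8 of the 10 members, 10 windows in all. None of them holds ATCAAAG, a form of the motif of the TCF/LEF factors through which beta-catenin acts, or its shorter form CTTTGA. These letters occur in 3.21% and 13.8% of all 32851 windows. Other forms of the TCF/LEF motif were not searched, so the members cannot be said to lack it. The printed Cldn4 window holds ctttgtt, which reads AACAAAG on the other strand and differs from ATCAAAG in its second base alone. How often AACAAAG occurs in all windows, or in those of the other members, was not counted. TTTATG occurs in 10.8% of all windows and TATAAA in 12.4%, and among the members both occur in Cldn2 alone. CACCTG occurs in 17.2% of all windows and, among the members, in those of Cldn4, Cldn7 and Ocln. The motifs CCACACCC (KLF, 3.20% of all windows) and CAAAGTCCA (HNF4, 0.384%) had no match among the members, and GTTAAT (HNF1, 6.43%) matched Cldn1. CTTTGA, read on the other strand, lies within ATCAAAG; the matches found in the members did not overlap each other. They describe letters in a short window and were not tested for binding.

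Other claudins and other genes of the junction were described from lists. Of 13 other claudins with a probe set, 11 lay below the level filter and 2, Cldn5 and Cldn12, were tested. Neither passed. Cldn5, the claudin of endothelial junctions, was at 5.75, 5.60, 5.49, 5.08 and 5.77 log2 in KO tumours 2, 6, 7, 9 and 11, against 6.75, 5.62, 8.33, 6.92 and 5.98 log2 in WT tumours 1, 3, 8, 12 and 13. Only WT tumour 3 lay within the KO range, and WT tumour 8 stood highest (difference −1.24 ± 0.44 log2, SE; adjusted p = 0.129, limma). WT tumour 8 also had the highest Cdh5, 8.03 log2, of all tumours and the highest Tie1, 6.48 log2 (both endothelium markers). It was not the highest for the other endothelium markers, Kdr, Egfl7, Tek, Emcn and Pecam1. Its endothelium mean was 7.51 log2, against 7.39 to 7.58 log2 in WT tumours 1, 12 and 13 and 6.49 log2 in WT tumour 3. The highest endothelium mean of all tumours was that of KO tumour 2, 7.77 log2, where Cldn5 was at 5.75 log2. The part of endothelium in the Cldn5 values was not tested. Cldn12 had a difference of 0.22 ± 0.10 log2 (adjusted p = 0.223).

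In the fit over all probe sets 4.31% of them passed, so a single call among these 11 claudins is not a result about the list. Cldn6, known as a claudin of embryonic epithelia, was that call and was picked out after its values were seen. It was at 3.60, 3.64, 3.66, 3.72 and 4.40 log2 in KO tumours 2, 6, 7, 9 and 11, against 9.50, 5.58, 7.86, 5.23 and 7.24 log2 in WT tumours 1, 3, 8, 12 and 13. The KO tumours lay in a narrow low band, and every WT tumour lay above them, spread over several log2 units. The difference was −3.30 ± 0.73 log2 (SE; adjusted p = 0.0303, limma over all probe sets), and its fold is not exact, since the KO mean of 3.81 log2 and the mean over all tumours lay below the level filter. The call was lost without KO tumour 2 (adjusted p = 0.0540), KO tumour 6 (0.0862), WT tumour 8 (0.0610) or WT tumour 13 (0.0590, limma), with differences of −3.25, −3.29, −3.08 and −3.25 log2. Cldn6 was refitted in 13 alternatives only. Mouse means, leaving out a mouse, the number ranges and the 3′ to 5′ measure were not among them. Its neighbour on chromosome 17, Cldn9, was at 4.83 log2 in KO and 4.81 log2 in WT tumours, also below the level filter.

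Of 36 other tight junction genes, 32 were tested, 1 fell, none rose and 31 did not pass, with a median difference of 0.08 log2 (limma; 6 had an unadjusted p under 0.05). Over all tested genes 2.93% fell and 22.4% had an unadjusted p under 0.05, so both counts lay near the background. Amotl1, a member of the angiomotin family of junction scaffolds, was the one that fell. It was at 8.66, 8.44, 8.05, 8.10 and 8.24 log2 in KO tumours 2, 6, 7, 9 and 11, against 10.49, 9.46, 9.82, 10.06 and 10.22 log2 in WT tumours 1, 3, 8, 12 and 13. No KO tumour reached a WT tumour, and the level in KO tumours was 3.27-fold lower (difference −1.71 ± 0.21 log2, SE; adjusted p = 0.00114, limma). It also fell over mouse means (−1.68 log2, adjusted p = 0.0169). The difference was −1.84 log2 (adjusted p = 0.132) in the lower range, which holds a single KO tumour, and within the upper range it was −2.13 log2 against a single WT tumour, the highest one for Amotl1. For its relatives Amot and Amotl2, which did not pass, the differences were −0.35 and −0.24 log2. The tricellular junction receptor gene Lsr and the scaffold gene Cgnl1, which did not pass either, were at 0.52 and −0.78 log2 KO minus WT (adjusted p = 0.0895 and 0.152).

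**Figure D4:**
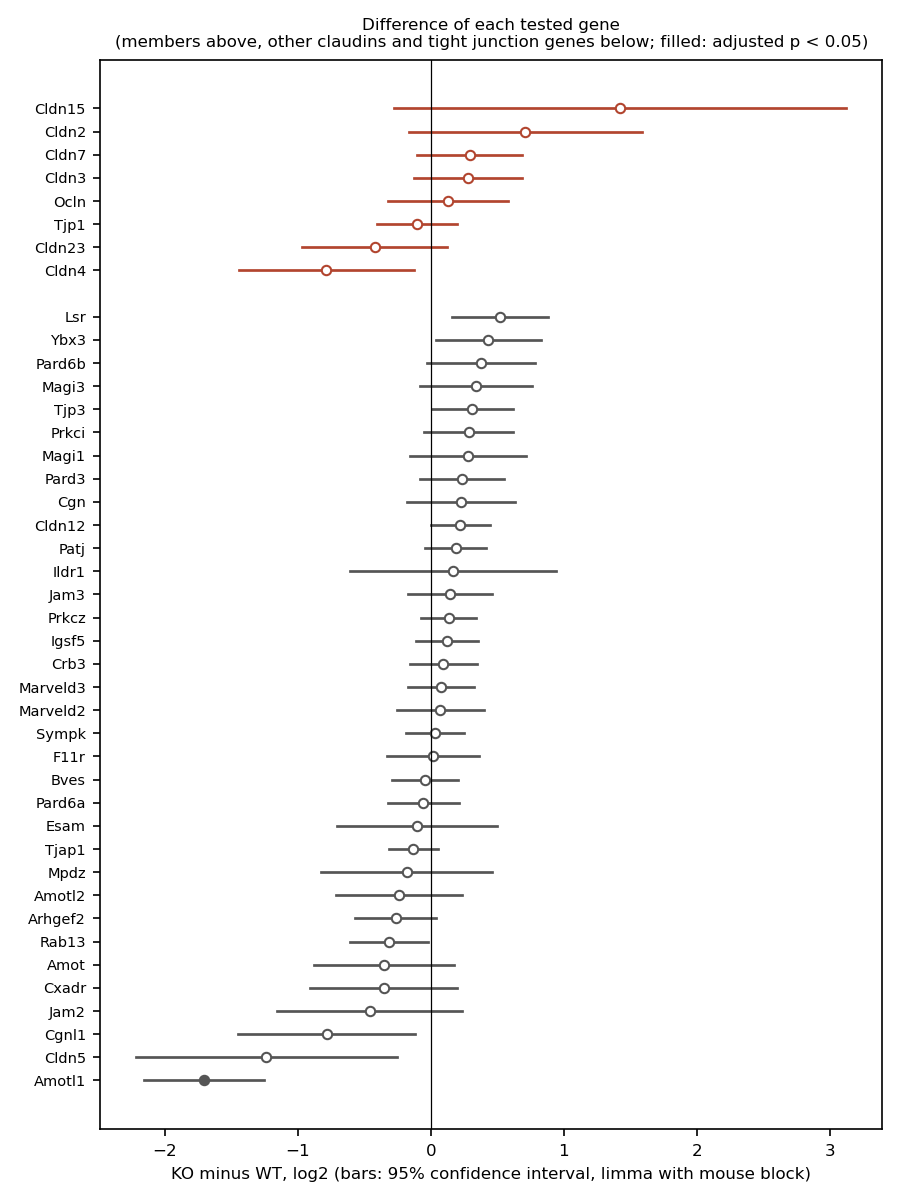
Fitted difference, KO minus WT in log2 units (x axis), of the 8 tested members and of the tested other claudins and other tight junction genes (y axis), with 95% confidence intervals. Amotl1 is the only filled point, the only one past the adjusted threshold; Cldn15 has the widest interval of the members and Tjp1 the narrowest.

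The genes known to act on claudins or on the differentiation of the cells that carry them were listed as well. Of 16, 15 were tested, 1 rose, none fell and 14 did not pass (limma; 5 had an unadjusted p under 0.05). Over all tested genes 4.16% rose and 22.4% had an unadjusted p under 0.05, and a single call among 15 is not a result about the list. Klf5, a transcription factor of dividing crypt cells, rose 1.80-fold. It was at 11.23 ± 0.05 log2 in KO and 10.39 ± 0.37 log2 in WT tumours (SD, n = 5 tumours each; difference 0.85 ± 0.17 log2, SE; adjusted p = 0.0173, limma) with no overlap of the groups. The call was lost without KO tumour 6 (0.84 log2, adjusted p = 0.0536), mouse 02 (0.84 log2, 0.0701) or mouse 04 (0.82 log2, 0.0625), where the difference stayed about as large. It was also lost within the lower number range (0.62 log2, adjusted p = 0.510) and over the mean of its probe sets (0.66 log2, adjusted p = 0.0585, limma). The largest difference of the list was that of Vdr, the vitamin D receptor, which narrowly did not pass (1.94 ± 0.53 log2, SE; adjusted p = 0.0521, limma) although the groups did not overlap. Mylk, the myosin light chain kinase that loosens junctions, had a difference of −0.76 log2 (adjusted p = 0.0859). Epcam, which binds Cldn7, had a difference of 0.0069 log2 (95% interval −0.18 to 0.20), and Cdx2, a colon identity factor, one of 0.014 log2 with a wide interval of −1.72 to 1.74.

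The genes whose profile over the 10 arrays was closest to a member were sought for the largest positive and the largest negative difference, by the root mean square difference of values centred on each gene's mean. For Cldn15 they were Hpca, Gcnt3 and Ffar4, at 0.66, 0.67 and 0.67 log2. The root mean square of Cldn15 about its own mean was 1.36 log2. Gcnt3 makes core glycans of mucins, Ffar4 is a receptor of long-chain fatty acids, and Hpca encodes a neuronal calcium sensor. For Cldn4 they were Hddc3, Ggh and Dusp4, at 0.19, 0.29 and 0.30 log2, where Cldn4 itself had 0.60 log2. Dusp4 is a phosphatase of MAP kinases, Ggh removes glutamates from folates, and Hddc3 is a hydrolase. None of these 6 genes passed the threshold (adjusted p from 0.0837 to 0.526, limma). They were picked on the same arrays for closeness to members that did not pass, so this is no separate result.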

How the data were processed

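Total RNA of 10 laser-dissected colon tumours was amplified and hybridised, per the labels' protocols. The authors deposited log2 values that RMA had produced from the scans, per the submitters' processing notes; its version and a genome build are not given in the sources used here. Probe sets were named through the platform annotation and GRCm38.p6 gene identifiers: of 45037 probe sets that are not controls, 34945 had 1 symbol, 932 several and 9160 none. The genotypes were compared in R 4.3.3 with limma 3.58.1, its duplicateCorrelation (through statmod 1.5.0) taking the mouse as block (consensus correlation 0.0586). The fit over all probe sets used the same correlation. Both were adjusted by Benjamini-Hochberg at a threshold of 0.05. The procedure was also run on simulated data that gave all genes the same within-mouse correlation. That run does not cover genes with a stronger mouse effect, and its outcome is not given here. The members, lists and alternatives were chosen with earlier results of these data known. Named genes were all members, list genes past the threshold or else the 2 with the smallest p, and the 3 closest profiles of 2 members; Cldn6 and its neighbour Cldn9, and further list genes named with their values, were added after values were seen, as were the alternatives for Amotl1, Klf5 and Cldn6. Tumours of a mouse are not independent animals.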

Additional observations from a re-analysis of the deposited data

Results flagged for a closer look

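Of single tumour values, 6 stood apart from the other 4 tumours of their group by more than Dixon's 95% limit for groups of 5. They were found among 116 groups checked, over the member probe sets and most of the other genes given with values. Chance flags about 1 in 20 groups, which is close to the number found. Cldn2 (1417231_at) was at 10.28 log2 in WT tumour 12, against 11.97 to 12.51 log2 in the other WT tumours. One Cldn3 probe set (1434651_a_at) was at 9.27 log2 in KO tumour 2, against 9.71 to 9.89 log2 in the other KO tumours. Cldn6 was at 4.40 log2 in KO tumour 11, against 3.60 to 3.72 log2 in the other KO tumours, below the level filter. Among the markers, Car4, below the level filter, was at 7.04 log2 in KO tumour 7, against 3.74 to 4.65 log2 in the other KO tumours. Lyz2 was at 11.85 log2 in KO tumour 9, against 12.14 to 12.25 log2 in the other KO tumours. Csf1r was at 9.16 log2 in WT tumour 3, against 10.31 to 10.67 log2 in the other WT tumours.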

How the results depend on the processing

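The differences of the 10 members were recomputed in 250 combinations of gene and alternative: 244 kept their sign and their side of the threshold, 1 passed it and 5 changed sign. Cldn4 passed without mouse 04, so that 1 member was lower there instead of 0. Ocln turned to −0.18 log2 with the number range as a covariate, −0.49 within the lower range and −0.083 without mouse 04, and Cldn1 to −0.080 without KO tumour 2 and −0.01 without WT tumour 3 (0.25 at most, without KO tumour 9); the cause was not tested. No member probe set was called when a tumour was left out (0 in each case), nor was any member. Over all genes, 509 were higher and 359 lower in KO. The counts were 195 and 193 over mouse means, 331 and 217 once the 3′ to 5′ measure was a covariate, 252 and 217 at a fold of at least 2, and 219 lower at the 60th percentile filter. They were 9 and 17 within the lower range, 318 and 230 without mouse 02, 265 and 202 without mouse 04, and 135 and 153 without mouse 72. Leaving out 1 tumour gave 286 to 539 higher and 186 to 406 lower; KO tumour 6 gave the lowest counts, and without WT tumour 1 they were 318 and 219. No paired analysis was possible because each mouse supplied tumours of 1 genotype only, so the genotypes were compared between different mice. Signal over background was not assessed, which limits Cldn1, Cldn6 and Cldn8.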
